A study of Arabidopsis thaliana with 6 samples.

Results

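The 10 genes described here are transcripts known from wounding, jasmonate signalling and the stress of making protoplasts: WRKY33, WRKY40, ERF1A, ERF115, ZAT10, ZAT12, LOX3, AOS, JAZ1 and JAZ10. They were chosen by name, through their Arabidopsis locus identifiers, with earlier results of these data known. All 10 were found among the 32833 genes of the count table. RNA was sequenced from root tips of Arabidopsis thaliana seedlings 7 days old, after the tips had been turned into protoplasts, plant cells whose walls have been digested away. All plants had the genotype Col0/H2B-RFP/CDT1a-GFP, so every gate carries a red reporter of histone H2B and a green reporter of CDT1a, a replication licensing factor. Cells were sorted by fluorescence into 3 gates of DNA content used as a proxy for cell cycle phase, with 2 libraries each: a 2n gate called G1, a gate from 2n up to 4n called S and a 4n gate called G2M. The promoters of the reporters are not stated in the labels, and a gate on DNA content also takes in cells that no longer divide. Every library came from protoplasts and no intact root is analysed here, so the values show how these transcripts differ between gates and not how far protoplasting changed them.

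Jasmonates are lipid hormones made after wounding. Lipoxygenases such as LOX3 and then the allene oxide synthase AOS begin their synthesis in plastids, and the active conjugate with isoleucine lets the receptor COI1 bind JAZ proteins such as JAZ1 and JAZ10, repressors of MYC transcription factors, which are then degraded. JAZ genes are themselves targets of MYC factors and are widely used as reporters of the pathway. WRKY, AP2/ERF and ZAT zinc finger genes belong to the early transcriptional response to wounding and other stress, and ERF115 is known in roots for divisions that replace damaged stem cells.

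Promoters are shown for 3 members because they hold the letters that such factors are known to bind. The windows are the 250 bases before the annotated gene start, read from the RefSeq genome and annotation of build TAIR10.1, 5′ to 3′ in the direction of the gene. Capitals mark the W-box (TTGACC or TTGACT, bound by WRKY factors), the G-box (CACGTG, bound by MYC factors) and the GCC-box (GCCGCC, bound by ERF factors), searched on both strands.
WRKY33 promoter, chr2:16107985-16108234, plus strand: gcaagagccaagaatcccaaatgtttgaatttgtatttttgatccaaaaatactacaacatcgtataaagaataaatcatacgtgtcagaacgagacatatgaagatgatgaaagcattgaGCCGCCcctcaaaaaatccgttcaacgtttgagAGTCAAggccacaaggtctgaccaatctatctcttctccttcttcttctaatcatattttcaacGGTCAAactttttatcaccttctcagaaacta
AOS promoter, chr5:17099596-17099845, minus strand: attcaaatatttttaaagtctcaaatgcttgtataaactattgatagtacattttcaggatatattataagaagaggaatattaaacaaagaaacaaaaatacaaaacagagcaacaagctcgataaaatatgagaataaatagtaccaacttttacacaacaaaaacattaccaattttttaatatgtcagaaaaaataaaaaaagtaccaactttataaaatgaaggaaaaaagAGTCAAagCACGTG
ERF1A promoter, chr4:9758953-9759202, plus strand: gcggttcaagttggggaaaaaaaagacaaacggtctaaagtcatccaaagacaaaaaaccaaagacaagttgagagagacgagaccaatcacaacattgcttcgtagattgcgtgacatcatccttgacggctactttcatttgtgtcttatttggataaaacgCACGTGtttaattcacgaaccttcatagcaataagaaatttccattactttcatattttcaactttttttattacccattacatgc

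WRKY33 has 2 W-boxes and a GCC-box, AOS has a W-box at −14 and a G-box at −6, and ERF1A has a G-box. Among the windows of 9 members, 3 held a W-box (WRKY33, LOX3 and AOS), against 28.4% of the windows of 27443 protein-coding nuclear genes. The G-box was in 2 members (ERF1A and AOS) against 6.49% of all windows, and the GCC-box in 2 (WRKY33 and ZAT10) against 1.87%. No match was found in the windows of WRKY40, ERF115, ZAT12 and JAZ10, which says only that these letters are not in these 250 bases.

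Total counts ran from 13114711 (S replicate 2) to 208406910 (S replicate 1), and all 10 members passed the filter on low counts that left 25364 genes for testing. Pearson's r of log2 CPM, taken over genes that are no independent replicates, was 0.932 within S, 0.966 within G2M and 0.973 within G1. S replicate 2 was closer to the G2M libraries (0.940 and 0.946) than to S replicate 1. Each pair of a gate differed by more than sampling noise. The labels do not say whether the libraries of a gate came from separate plantings, so p-values measure the spread between libraries, which may be technical. Summed markers of leaf photosynthesis stood at 1.16 to 3.21 CPM in all libraries, while 4 root cap regulators summed to between 100.4 and 539 CPM. Markers of the endodermis summed to between 0.444 and 3.32 CPM.

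Set against each other per length, as TPM recomputed from the counts and exon lengths, ZAT12 was the most abundant member in G1 and S, at means of 762 and 548 TPM, and JAZ1 followed at 373 and 327 TPM. In G2M the order of these genes turned, with JAZ1 at 204 and ZAT12 at 162 TPM, and in that gate their ranges were adjacent, JAZ1 at 192 to 216 and ZAT12 at 132 to 192 TPM. WRKY40, WRKY33, ERF1A, ZAT10 and AOS lay between 75.5 and 202 TPM in all gates. JAZ10 had 24.8 to 31.4 and LOX3 10.2 to 16.5 TPM, while ERF115 did not exceed a mean of 1.60 TPM. All levels below are CPM, the counts of a gene relative to the total mapped to genes, after TMM scaling of the libraries. Together the 10 members summed to 1564 and 1591 CPM (G1), 1178 and 1398 CPM (S) and 788 and 927 CPM (G2M), without overlap between gates.

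**Figure D1:**
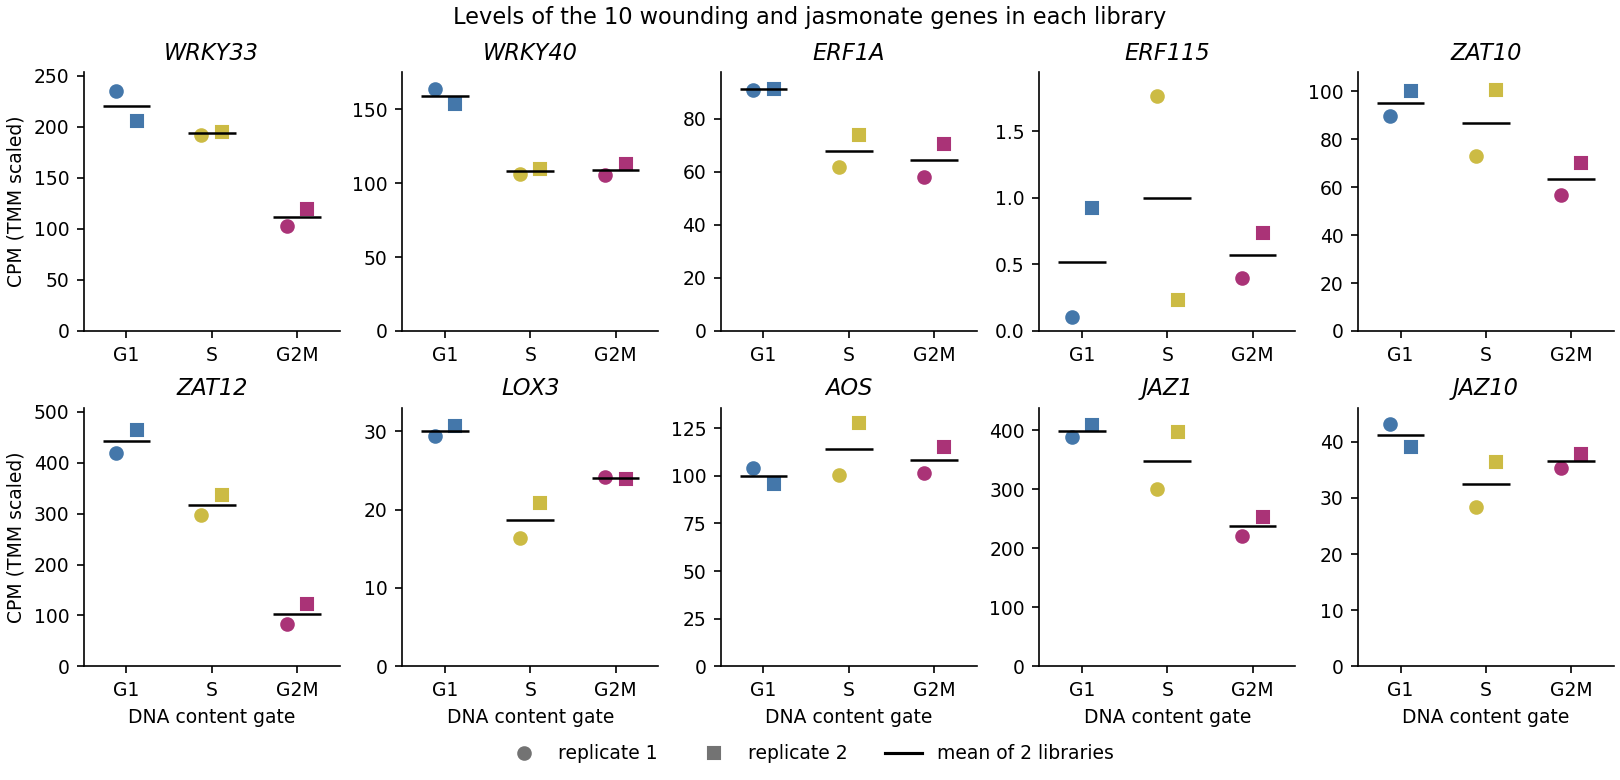
CPM after TMM scaling (y axis, from 0, a separate scale for each gene) of the 10 members in each library, by DNA content gate (x axis). Circles are replicate 1, squares replicate 2 and lines the mean of 2 libraries. ZAT12 lies between 82.9 and 123 CPM in the G2M libraries and at 297 CPM or more in all others, while the libraries of AOS overlap between all gates.

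In each comparison some members fell and no rise passed the test, an edgeR quasi-likelihood test with Benjamini-Hochberg adjustment over all genes tested and a threshold of 0.05. In S versus G1, WRKY40, ERF1A and LOX3 fell, 3 of 10 members, where 21.2% of all genes tested were called, 7.28% lower and 13.9% higher. In G2M versus S, WRKY33, ZAT12 and JAZ1 fell, again 3 of 10, where 19.6% of all genes were called, 10.1% lower and 9.46% higher. In G2M versus G1, WRKY33, WRKY40, ERF1A, ZAT10, ZAT12 and JAZ1 fell, 6 of 10, where 40.3% of all genes were called, 17.1% lower and 23.2% higher. The median log2 fold change of the members was −0.28 in S versus G1 (0.08 over all genes tested), −0.26 in G2M versus S (−0.10) and −0.52 in G2M versus G1 (−0.14). Members called higher numbered 0 by edgeR in each comparison. At an unadjusted p under 0.05 they numbered 0 in S versus G1, 1 (LOX3) in G2M versus S and 0 in G2M versus G1. DESeq2 called 0 higher in each comparison, and limma-voom called 1 in S versus G1 (ERF115), 1 in G2M versus S (LOX3) and 0 in G2M versus G1. Under a filter of 10 CPM in 2 libraries the G2M versus G1 log2 fold changes were −0.84 for WRKY40, −0.80 for ERF1A and −0.88 for ZAT10. That filter left 12417 genes, with all members but ERF115. Of these genes 2841 were called lower in S versus G1 and 2657 in G2M versus S, larger shares than over the 25364. In G2M versus G1 3766 were called higher, 48.6% of those called. TMM factors were computed again after that filter, which shifted the scaling of every gene. The median log2 fold change of the genes tested was −0.0055 in G2M versus G1, against −0.14 over the 25364. For NINJA, a listed gene that rose there, the log2 fold change moved from 0.89 to 0.58. The shares over all genes thus depend on the genes kept and on the scaling, and these parts were not separated. With upper-quartile scaling the share of higher among all called genes was 44.2% in S versus G1 and 44.0% in G2M versus G1. With TMM it was 65.6% and 57.5%. Members called lower with upper-quartile scaling numbered 7 in S versus G1, where 3026 of 25364 genes tested were called lower. The comparisons share libraries, so their counts are not independent of each other. Calls are also described below as lost without a library. Fewer libraries then measure the spread, so a call can be lost at an unchanged log2 fold change. Losses under the other settings are given for only some of the listed genes.

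**Figure D2:**
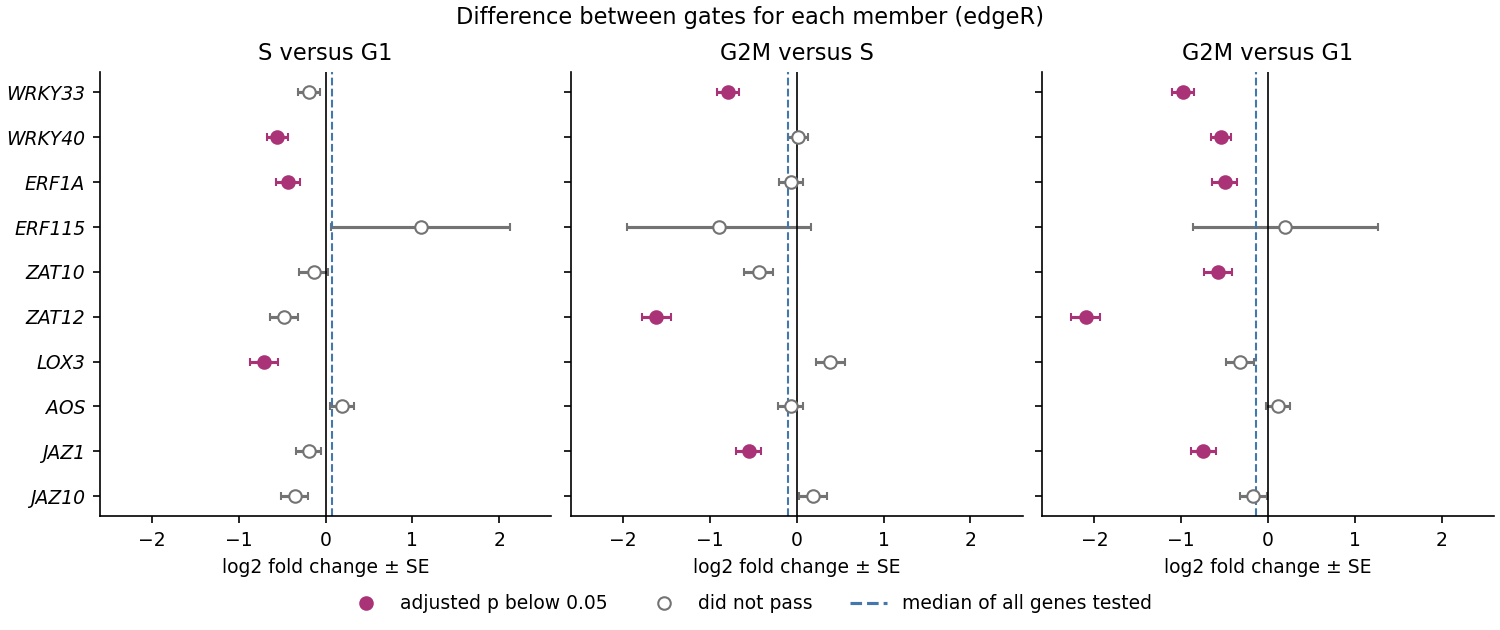
Log2 fold change with its SE (x axis) of each member (y axis) in the 3 comparisons, the gate named first over the gate named second, from edgeR. Filled points passed an adjusted p of 0.05, open points did not, and the dashed line is the median of all genes tested. ZAT12 lies farthest to the left in G2M versus S and G2M versus G1, at −1.62 and −2.101, and ERF115 has the widest SE.

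ZAT12 (AT5G59820, chromosome 5, 24102814 to 24103794, build TAIR10.1), a zinc finger factor known from the response to oxidative stress and high light, had the largest log2 fold change of the members in both G2M comparisons. It had 419 and 465 CPM (G1), 297 and 336 CPM (S) and 82.9 and 123 CPM (G2M). The gates did not overlap, and both G2M libraries were far below all others. ZAT12 fell by 2.101 ± 0.17 (log2 fold change ± SE) in G2M versus G1 (edgeR adjusted p = 1.16e-06), a level 4.29-fold lower, and by 1.62 ± 0.17 in G2M versus S (edgeR adjusted p = 4.58e-05), 3.07-fold lower. Of all genes tested 8.67% had a lower log2 fold change in G2M versus G1 and 11.8% in G2M versus S. Between S and G1 its log2 fold change of −0.48 ± 0.16 did not pass (edgeR adjusted p = 0.0520), though it passed under 12 of the 16 other settings, with adjusted p between 0.00333 and 0.271 over those 16.

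ZAT10 (AT1G27730, chromosome 1, 9648021 to 9649323), a related zinc finger repressor of salt, cold and jasmonate responses, differed less. It had 89.8 and 100.3 CPM (G1), 73.1 and 100.7 CPM (S) and 56.8 and 70.2 CPM (G2M). Both G2M libraries lay below the others, while the S libraries spanned those of G1. ZAT10 fell by 0.58 ± 0.17 in G2M versus G1 (edgeR adjusted p = 0.0138). That call was lost without G1 replicate 2 or G2M replicate 1. Its log2 fold change ran from −0.74 to −0.41 over the single libraries left out. Against S, the G2M libraries did not pass at −0.44 ± 0.17 (edgeR adjusted p = 0.0815), though they did under 6 of the 16 other settings (from 0.00835 to 0.506 over those 16), and in S versus G1 it did not pass at −0.14 ± 0.16 (0.655).

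WRKY33 (AT2G38470, chromosome 2, 16108235 to 16110766), a factor needed for defence against necrotrophic fungi, had 235 and 206 CPM (G1), 193 and 195 CPM (S) and 103 and 120.0 CPM (G2M). Its low gate was G2M. WRKY33 fell by 0.98 ± 0.13 in G2M versus G1 (edgeR adjusted p = 5.39e-05), 1.98-fold lower, under all 16 other settings too. It also fell in G2M versus S, by 0.80 ± 0.13 (edgeR adjusted p = 0.00126), a call lost without G2M replicate 1 (adjusted p = 0.0636). Between S and G1 its log2 fold change was −0.19 ± 0.13 and did not pass (edgeR adjusted p = 0.365). It passed there under 2 of the 16 other settings, with log2 fold changes from −0.37 to −0.0907 over those 16.

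WRKY40 (AT1G80840, chromosome 1, 30383561 to 30385499), which acts with WRKY18 and WRKY60 in defence and abscisic acid responses, had its step at another place. It had 164 and 154 CPM (G1), 106 and 109.9 CPM (S) and 105 and 113 CPM (G2M). The G1 libraries stood above the rest, and those of S and G2M overlapped. WRKY40 fell by 0.56 ± 0.12 in S versus G1 (edgeR adjusted p = 0.00477), or at 0.0630 and not passing once G1 replicate 1 was left out. It fell by 0.54 ± 0.12 in G2M versus G1 (edgeR adjusted p = 0.00264), lost without G2M replicate 1 (adjusted p = 0.0869). In G2M versus S its log2 fold change was 0.02 ± 0.12 (edgeR adjusted p = 0.935). WRKY33 and WRKY40 share 2.42% and 3.85% of their exon bases with genes on the opposite strand, and the strandedness of the counting is not given in the sources used here.

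ERF1A (AT4G17500, chromosome 4, 9759203 to 9760391), an ethylene response factor that activates genes through the GCC-box, followed an order like that of WRKY40. It had 91.0 and 91.3 CPM (G1), 61.8 and 73.9 CPM (S) and 58.2 and 70.5 CPM (G2M). ERF1A fell by 0.43 ± 0.14 in S versus G1 (edgeR adjusted p = 0.0453) and by 0.50 ± 0.14 in G2M versus G1 (0.0129), and the S and G2M libraries overlapped. Leaving out any library but S replicate 2 ended the S versus G1 call, at an edgeR adjusted p of 0.182 and 0.185 for the G1 replicates 1 and 2, 0.154 for S replicate 1, and 0.0892 and 0.0706 for the G2M replicates 1 and 2. It also ended when only these 2 gates were fitted (0.0523). The G2M versus G1 call was lost without G1 replicate 1 (0.0639), G1 replicate 2 (0.0650) or G2M replicate 1 (0.247).

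ERF115 (AT5G07310, chromosome 5, 2305551 to 2306837), the factor of stem cell replacement, was the least abundant member and varied within gates. Its counts were 14 and 61 reads (G1), 391 and 3 (S) and 6 and 22 (G2M). These correspond to 0.107 and 0.924 CPM (G1), 1.77 and 0.235 CPM (S) and 0.400 and 0.737 CPM (G2M), where a floor of 3 counts is worth between 0.0136 CPM in S replicate 1 and 0.235 CPM in S replicate 2. The highest library of a gate was 8.62 times the lowest in G1 and 7.51 times in S, and the gates overlapped in every comparison. Its log2 fold changes of 1.09 ± 1.03 in S versus G1, −0.89 ± 1.06 in G2M versus S and 0.20 ± 1.07 in G2M versus G1 did not pass with edgeR. Limma-voom called it higher in S versus G1 at 2.68 (adjusted p = 0.0159), and without S replicate 1 edgeR gave −1.09 there (0.644). Floors in counts cover counting error only, since without molecular identifiers several reads may stem from 1 molecule.

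The 2 enzymes of jasmonate synthesis had different orders of levels over the gates. LOX3 (AT1G17420, chromosome 1, 5977323 to 5981521), a lipoxygenase of the wound response, had 29.4 and 30.7 CPM (G1), 16.4 and 20.9 CPM (S) and 24.1 and 23.9 CPM (G2M). It was lowest in S, with no overlap between gates. LOX3 fell by 0.71 ± 0.16 in S versus G1 (edgeR adjusted p = 0.00762), lost without G1 replicate 2 (adjusted p = 0.0632). Against S, the G2M libraries did not pass at 0.38 ± 0.17 (edgeR adjusted p = 0.119), but passed without S replicate 2 at 0.60 (0.0115). In G2M versus G1 it did not pass at −0.33 ± 0.16 (edgeR adjusted p = 0.127), though it did under 5 of the 16 other settings, with values down to −0.65 (adjusted p from 0.00203 to 0.386 over those 16).

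AOS (AT5G42650, chromosome 5, 17097564 to 17099595), the enzyme that follows lipoxygenase, had 104 and 95.7 CPM (G1), 100.7 and 128 CPM (S) and 101 and 115 CPM (G2M). All gates overlapped. Its log2 fold changes were 0.19 ± 0.14 in S versus G1, −0.07 ± 0.14 in G2M versus S and 0.12 ± 0.14 in G2M versus G1, with edgeR adjusted p of 0.432, 0.745 and 0.535, and their signs turned under other settings.

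JAZ1 (AT1G19180, chromosome 1, 6621777 to 6623668), a repressor of MYC factors, had 388 and 408 CPM (G1), 300.3 and 397 CPM (S) and 221 and 254 CPM (G2M). Both G2M libraries were below all others, and S overlapped with G1. JAZ1 fell by 0.75 ± 0.14 in G2M versus G1 (edgeR adjusted p = 0.00109), 1.68-fold lower, and by 0.55 ± 0.14 in G2M versus S (0.0185). The first call held under all 16 other settings, at −0.45 once GC content and exon length were offset. The G2M versus S call was lost without S replicate 2, where the log2 fold change was −0.29 (edgeR adjusted p = 0.0758), without G2M replicate 1 (0.259) and without G2M replicate 2 (0.0659). In S versus G1 JAZ1 did not pass at −0.19 ± 0.14 (edgeR adjusted p = 0.415). It passed there under 3 of the 16 other settings, among them the fit without S replicate 2, at −0.44.

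JAZ10 (AT5G13220, chromosome 5, 4218786 to 4221077), a JAZ repressor known for splice forms that resist degradation, stayed in a narrower range. It had 43.2 and 39.2 CPM (G1), 28.5 and 36.5 CPM (S) and 35.3 and 37.9 CPM (G2M). The G1 libraries were the highest, and the S and G2M libraries overlapped. No comparison passed for JAZ10, at −0.36 ± 0.15 in S versus G1 (edgeR adjusted p = 0.132), 0.19 ± 0.16 in G2M versus S (0.413) and −0.17 ± 0.15 in G2M versus G1 (0.402). Without S replicate 2 it passed in S versus G1 at −0.56 (0.0163) and in G2M versus S at 0.41 (0.0478). It passed under 4 of the 16 other settings in S versus G1 (from 0.00559 to 0.556) and under 2 of 16 in G2M versus G1 (from 0.00712 to 0.790). Counts per gene do not separate its splice forms. Of its exon bases 3.21% are shared with a gene on the opposite strand.

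Ratios between related members within a library do not depend on how libraries are scaled. The TPM ratio of ZAT12 over ZAT10 was 6.20 and 6.16 (G1), 5.40 and 4.43 (S) and 1.94 and 2.32 (G2M), without overlap between gates. WRKY33 over WRKY40 was 0.937 and 0.876 (G1), 1.18 and 1.16 (S) and 0.636 and 0.694 (G2M), again without overlap, with the highest ratio in S. JAZ1 over JAZ10 was 11.03 and 12.8 (G1), 13.0 and 13.4 (S) and 7.68 and 8.22 (G2M), so the G2M libraries stood below the rest. AOS over LOX3 was 5.38 and 4.73 (G1), 9.34 and 9.30 (S) and 6.38 and 7.33 (G2M), highest in S. A two-sided exact permutation test of a ratio cannot give a p below 0.333 at 2 libraries per gate, so these are descriptions.

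**Figure D3:**
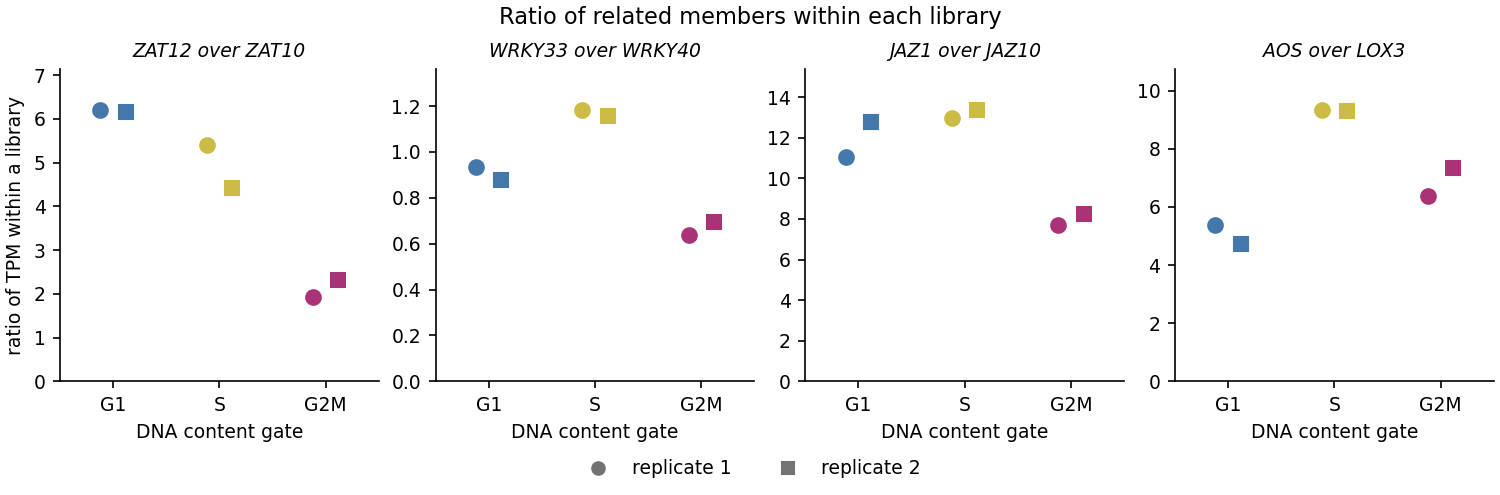
Ratio of the TPM of related members within each library (y axis, from 0) by DNA content gate (x axis), circles for replicate 1 and squares for replicate 2. ZAT12 over ZAT10 lies at 1.94 and 2.32 in the G2M libraries, below all others, and AOS over LOX3 is highest in the S libraries, at 9.34 and 9.30.

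By pattern, the closest members were ZAT10 and JAZ1. Likeness was measured as the root mean square difference of log2 CPM over the 6 libraries, each gene centred on its own mean. ZAT10 and JAZ1 differed by 0.0796, and WRKY40 and ERF1A by 0.0991. Among 5455 genes with at least 10 CPM and a symbol, the nearest to ZAT12 were MTPB1 (0.0989) and CYP707A1 (0.139), and the nearest to WRKY33 were CPK32 (0.0588) and TAT3 (0.0612). The nearest to WRKY40 were Tic32-IVa (0.0589) and BPA1 (0.0622), and the nearest to ERF1A were SAP7 (0.0436) and GSTF10 (0.0469). For ZAT10 they were HTA11 (0.0398) and JAZ1, and for JAZ1 they were AtATG18a (0.0533) and ATAUX2-11 (0.0653). For JAZ10 they were GH9B1 (0.0418) and ATRER1C1 (0.0419), for LOX3 CXIP4 (0.0585) and CRK1 (0.0593), and for AOS ROPGEF1 (0.0457) and bHLH104 (0.0510). For ERF115 the closest of these genes, ZPR4, differed by 0.943. The candidates leave out genes as low as ERF115, at gate means of 0.516 to 1.00 CPM, so no likeness can be read for it.

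Other genes of the response were read from 8 lists of 71 genes, 67 of which were tested. The lists were written with earlier results of these data known, so their counts are descriptions. In G2M versus G1, 19 of the 67 fell and 7 rose, where 17.1% of all genes were called lower and 23.2% higher, with a median log2 fold change of −0.26 against −0.14 over all genes. In G2M versus S, 17 fell and 5 rose, where 10.1% of all genes were called lower and 9.46% higher, with a median of −0.15 against −0.10. In S versus G1, 8 fell and 4 rose, where 7.28% of all genes were called lower and 13.9% higher, with a median of −0.11 against 0.08. Without 1 library the falling genes numbered 11 to 24 in G2M versus G1, 7 to 17 in G2M versus S and 2 to 12 in S versus G1, with the lowest counts without G2M replicate 1 in both G2M comparisons and without G1 replicate 1 in S versus G1. Rising genes numbered 2 to 13 in G2M versus G1, 0 to 8 in G2M versus S (0 without G2M replicate 2) and 1 to 7 in S versus G1.

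**Figure D4:**
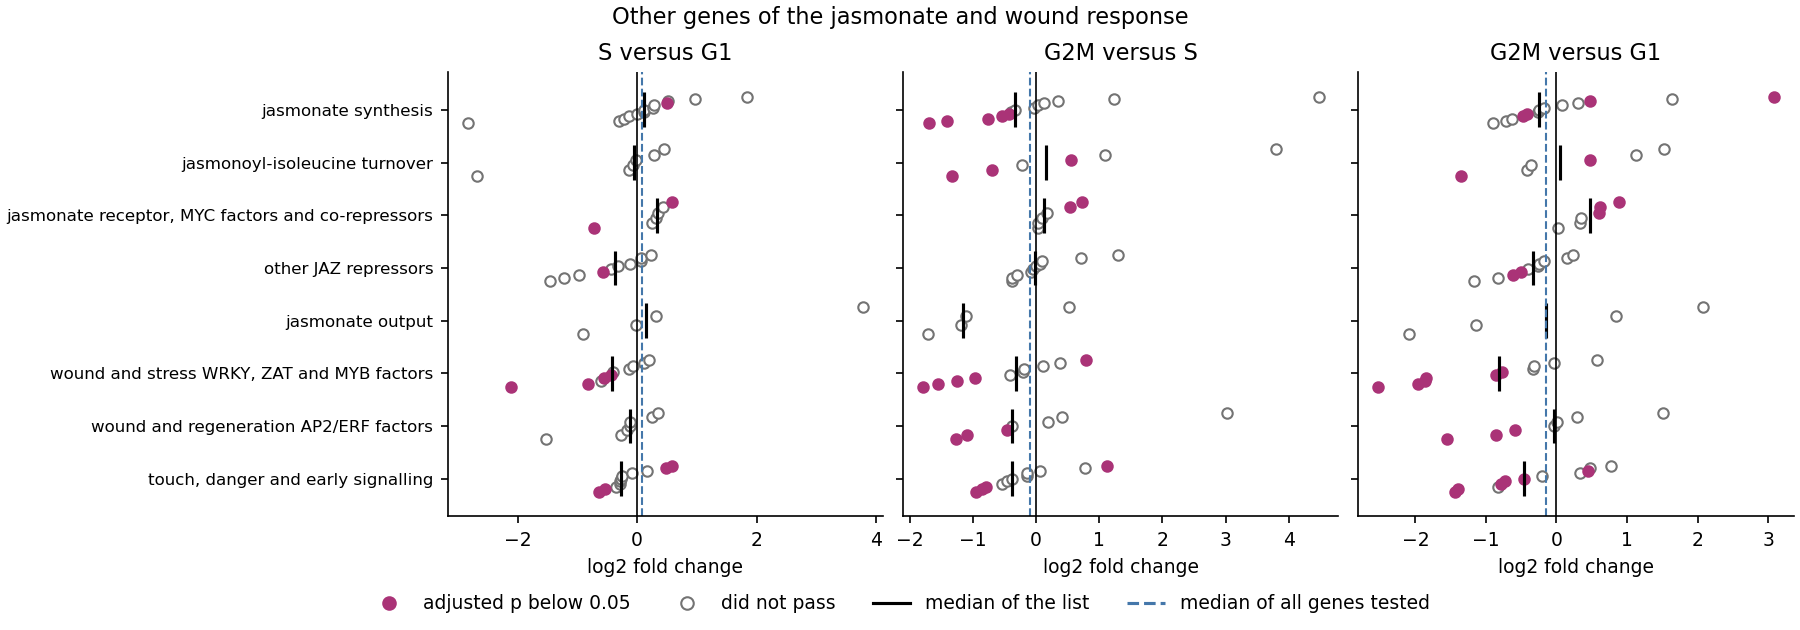
Log2 fold change (x axis) of the 67 tested genes of 8 lists (y axis) in the 3 comparisons, the gate named first over the gate named second, from edgeR. Filled points passed an adjusted p of 0.05, open points did not, black bars are list medians and dashed lines the median of all genes tested. The list of WRKY, ZAT and MYB factors has its median at −0.81 in G2M versus G1, with 6 of 10 genes called lower.

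Of the wound and stress WRKY, ZAT and MYB factors 6 of 10 fell in G2M versus G1, where 17.1% of all genes were called lower. These 6, WRKY6, WRKY53, ZAT6, ZAT11, MYB51 and SZF1, remained called lower whichever library was left out. Once GC content and exon length were offset, the log2 fold change was −1.31 for WRKY6 (−0.85 without offsets), −1.01 for ZAT11 (−1.85) and −1.24 for SZF1 (−0.77). ZAT6, a zinc finger factor, fell by 2.53 ± 0.41 in G2M versus G1 (edgeR adjusted p = 3.07e-04), to 1.79 ± 0.456 CPM in G2M against 10.5 ± 0.245 CPM in G1, and fell by 2.11 ± 0.39 in S versus G1 (edgeR adjusted p = 0.00208). MYB51, a regulator of indole glucosinolates, fell by 1.97 ± 0.35 in G2M versus G1 (edgeR adjusted p = 6.76e-04), to 3.11 ± 0.249 CPM in G2M against 12.3 ± 0.631 CPM in G1. It also fell by 1.56 ± 0.35 in G2M versus S (edgeR adjusted p = 0.00963), which did not hold without S replicate 1 (0.119), G2M replicate 1 (0.0773) or G2M replicate 2 (0.0574). WRKY53, a factor of leaf senescence, fell by 1.80 ± 0.16 in G2M versus S (edgeR adjusted p = 1.24e-05), to 12.8 ± 1.52 CPM in G2M against 44.8 ± 2.73 CPM in S, and 20.5% of its exon bases are shared with another gene. WRKY18, a partner of WRKY40, fell by 0.82 ± 0.17 in S versus G1 (edgeR adjusted p = 0.00430) and rose by 0.79 ± 0.17 in G2M versus S (edgeR adjusted p = 0.00847). The call of that rise was lost without G2M replicate 2, at a log2 fold change of 0.63.

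Among wound and regeneration AP2/ERF factors 3 of 7 fell in both G2M comparisons, ERF6, ERF104 and WIND1, where 17.1% of all genes were called lower against G1 and 10.1% against S. WIND1, a factor that promotes callus at wounds, had 277 ± 4.63 CPM in G2M, against 503 ± 42.5 CPM in G1 and 595 ± 49.8 CPM in S (SD, n = 2 each). It fell by 0.86 ± 0.12 in G2M versus G1 (edgeR adjusted p = 1.00e-04) and by 1.102 ± 0.12 in G2M versus S (7.05e-05). ERF104 fell by 1.55 ± 0.18 in G2M versus G1 and by 1.27 ± 0.19 in G2M versus S, and both genes held whichever library was left out. ERF6 lost its calls without G2M replicate 1 (0.0672 against G1 and 0.266 against S) and, against S, without G2M replicate 2 (0.0993).

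Of 11 genes of touch, danger and early signalling 5 fell in G2M versus G1 and 1, PEPR1, rose, where 17.1% of all genes were called lower and 23.2% higher. TCH2, a calmodulin-like touch gene, fell by 1.39 ± 0.12 in G2M versus G1 (edgeR adjusted p = 1.75e-06), to 115 ± 4.53 CPM in G2M against 303 ± 4.47 CPM in G1. ATL2, a ubiquitin ligase of the elicitor response, fell by 1.44 ± 0.19 in G2M versus G1 (edgeR adjusted p = 5.21e-05), to 12.3 ± 0.380 CPM in G2M against 33.4 ± 3.07 CPM in G1. Both held whichever library was left out. TCH2 also fell by 0.85 ± 0.12 in G2M versus S (edgeR adjusted p = 4.35e-04) and fell by 0.54 ± 0.12 in S versus G1 (edgeR adjusted p = 0.00507), the last lost without G1 replicate 1 (0.0545), and ATL2 fell by 0.65 ± 0.18 in S versus G1 (edgeR adjusted p = 0.0216), lost without G1 replicate 1 (0.179), G1 replicate 2 (0.0613) or S replicate 1 (0.103). TCH4, a xyloglucan-modifying enzyme induced by touch, fell by 0.95 ± 0.18 in G2M versus S (edgeR adjusted p = 0.00355), lost without G2M replicate 1 (0.0818). PEPR1, a receptor of Pep danger peptides, rose by 0.58 ± 0.13 in S versus G1 (edgeR adjusted p = 0.00572). That call was lost without G1 replicate 1 (at 0.56) and with GC and length offsets at 0.17 (adjusted p = 0.337). It rose by 0.44 ± 0.13 in G2M versus G1 (edgeR adjusted p = 0.0147), where leaving out any library of G1 or G2M ended the call (from 0.0597 to 0.147) and offsets turned it to −0.19. TCH3 rose by 0.48 ± 0.14 in S versus G1 (edgeR adjusted p = 0.0296). That call was lost without G1 replicate 1 (at 0.41), G1 replicate 2 (0.56), S replicate 2 (0.43) or G2M replicate 1 (0.47). It was also lost with upper-quartile factors at 0.30 (adjusted p = 0.156), the 10 CPM filter at 0.31 (0.0752), only the 2 gates at 0.40 (0.115) and offsets at 0.37 (0.0881). PROPEP1, a precursor of a Pep peptide, rose by 1.13 ± 0.36 in G2M versus S (edgeR adjusted p = 0.0431), lost without any library but S replicate 2 (from 0.0665 to 0.2503).

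The jasmonate lists went both ways. Of 13 other synthesis genes 2 fell and 2 rose in G2M versus G1, where 17.1% of all genes were called lower and 23.2% higher. In G2M versus S 5 fell (DAD1, LOX2, LOX4, LOX6 and JAR1), where 10.1% were called lower, and each of these calls was lost without at least 1 library. AOC2, an allene oxide cyclase with near copies that can share reads, had 1.67 and 9.55 CPM (G2M) against 0.789 and 0.546 CPM (G1), so G2M replicate 2 carried most of the difference. It rose by 3.08 ± 0.72 in G2M versus G1 (edgeR adjusted p = 0.00433), and without G2M replicate 2 its log2 fold change was 1.31 and did not pass (0.259). AOC3 fell by 0.47 ± 0.12 in G2M versus G1 (edgeR adjusted p = 0.00598), to 140 ± 9.68 CPM in G2M against 194 ± 0.0134 CPM in G1. That call was lost with GC and length offsets at −0.0537 (0.632) and without G2M replicate 1 (0.160), and the value was −0.78 under the filter of 10 CPM. ACX1, an acyl-CoA oxidase, rose by 0.47 ± 0.15 in G2M versus G1 (edgeR adjusted p = 0.0240), lost without G1 replicate 2 (0.282), G2M replicate 1 (0.0847) or G2M replicate 2 (0.150), and turned to −0.0317 with offsets. The lipoxygenase LOX4 fell by 0.42 ± 0.14 in G2M versus G1 (edgeR adjusted p = 0.0250), lost without G1 replicate 1 (0.167), G1 replicate 2 (0.0612), G2M replicate 1 (0.0501) or G2M replicate 2 (0.293), and was at −0.76 with offsets. The lipoxygenase LOX2 fell by 1.41 ± 0.40 in G2M versus S (edgeR adjusted p = 0.0282), lost without S replicate 1 (0.210), G2M replicate 1 (0.126) or G2M replicate 2 (0.182). DAD1, a lipase, fell by 1.70 ± 0.56 in G2M versus S (edgeR adjusted p = 0.0493), lost without any library but S replicate 2 (from 0.0780 to 0.352). LOX6 rose by 0.50 ± 0.16 in S versus G1 (edgeR adjusted p = 0.0391). That call was lost without G1 replicate 2 (at 0.34), S replicate 2 (0.31), G2M replicate 1 (0.50) or G2M replicate 2 (0.50). In all it was lost under 10 of the 16 other settings. Among these were GC and length offsets at 0.10 (adjusted p = 0.666), upper-quartile factors at 0.32 (0.123) and only the 2 gates at 0.43 (0.150).

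In the turnover list of 6 genes ILL6, an amidohydrolase of jasmonoyl-isoleucine, fell by 1.35 ± 0.17 in G2M versus G1 (edgeR adjusted p = 3.45e-05), to 14.0 ± 2.04 CPM in G2M against 35.9 ± 2.41 CPM in G1, and fell by 1.33 ± 0.17 in G2M versus S (edgeR adjusted p = 2.15e-04), and both calls held whichever library was left out. ST2A, a sulfotransferase, fell by 0.70 ± 0.17 in G2M versus S (edgeR adjusted p = 0.0124), lost without G2M replicate 1 (0.0587) or G2M replicate 2 (0.173). IAR3, another amidohydrolase, rose by 0.48 ± 0.17 in G2M versus G1 (edgeR adjusted p = 0.0380). That call was lost without G1 replicate 1 (at 0.42), G1 replicate 2 (0.53) or G2M replicate 2 (0.23). IAR3 also rose by 0.55 ± 0.17 in G2M versus S (edgeR adjusted p = 0.0412). This call was lost without G1 replicate 1 (at 0.55), G1 replicate 2 (0.55), S replicate 1 (0.57) or G2M replicate 2 (0.31). Of the 10 other JAZ genes JAZ2 and JAZ11 fell in G2M versus G1, by 0.50 ± 0.13 and 0.62 ± 0.19, where 17.1% of all genes were called lower. Both were lost without either library of G1 or of G2M (edgeR adjusted p from 0.0515 to 0.149), and JAZ2 was at −0.80 under the filter of 10 CPM. JAZ11 fell by 0.57 ± 0.19 in S versus G1 (edgeR adjusted p = 0.0470), lost without any library but S replicate 1 (from 0.0741 to 0.202).

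Of 6 tested genes of the receptor, MYC factors and co-repressors 3 rose in G2M versus G1 (NINJA, TPL and MYC4), where 23.2% of all genes were called higher. MYC4 rose by 0.60 (edgeR adjusted p = 0.0229). Its call was lost with upper-quartile factors at 0.38 (0.114) and under the filter of 10 CPM at 0.29 (0.209). It was also lost without any single library of G1 or G2M, at 0.51 to 0.69. NINJA, the adaptor that ties JAZ proteins to co-repressors, rose by 0.89 ± 0.13 in G2M versus G1 (edgeR adjusted p = 1.18e-04), to 159 ± 1.94 CPM in G2M against 85.8 ± 5.59 CPM in G1. Its call held whichever library was left out, at 0.47 with GC and length offsets and 0.58 under the filter of 10 CPM. It rose by 0.53 ± 0.13 in G2M versus S (edgeR adjusted p = 0.0124). That call was lost without G2M replicate 1 or G2M replicate 2, though the log2 fold change was 0.55 in both cases. TPL, a co-repressor, rose by 0.62 ± 0.16 in G2M versus G1 (edgeR adjusted p = 0.00747), lost without G1 replicate 2 (0.102) or G2M replicate 1 (0.110), and turned to −0.0624 with offsets. TPL also rose by 0.58 ± 0.16 in S versus G1 (edgeR adjusted p = 0.0197), lost without G1 replicate 2 (0.219) or S replicate 2 (0.111). MYC3, a partner of MYC2, fell by 0.72 ± 0.21 in S versus G1 (edgeR adjusted p = 0.0272), lost without G1 replicate 1 (0.121) or G1 replicate 2 (0.1198), and rose by 0.73 ± 0.21 in G2M versus S (edgeR adjusted p = 0.0308), lost without G1 replicate 1 (0.0519), G1 replicate 2 (0.0523), G2M replicate 1 (0.0537) or G2M replicate 2 (0.309). In the output list of 4 tested genes edgeR called 0 in every comparison, and at an unadjusted p under 0.05 it called 1 higher in S versus G1 and 0 elsewhere. DESeq2 called 0 of these 4 in all comparisons, and limma-voom called 1 in S versus G1 and 0 elsewhere.

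MYC2, the main factor that JAZ proteins repress, is listed at 0 in all 6 libraries, and so is ERF105. Of the exon bases of MYC2 98.5% are shared with another annotated gene, and of those of ERF105 100%. Over protein-coding nuclear genes with at least 90% of exon bases shared, 408 of 539 had a total of 0 counts, or 75.7%, against 48 of 19961 genes with no shared base, or 0.240%. No level of MYC2 can be read from this 0. The members share at most 3.85% of their exon bases in this way.

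Markers of cell types differed between the gates beside the members. The 4 root cap regulators (SMB, BRN1, BRN2 and FEZ) summed to 539 and 461 CPM (G1), 359 and 368 CPM (S) and 109 and 100.4 CPM (G2M). All 4 fell in G2M versus G1 and in G2M versus S, and 3 fell in S versus G1. The 4 phloem markers summed to 70.3 and 63.0 CPM (G1), 24.1 and 16.0 CPM (S) and 13.6 and 12.8 CPM (G2M), while the 4 xylem markers summed to 66.8 and 109 CPM (G1), 192 and 181 CPM (S) and 192 and 206 CPM (G2M). The 5 genes listed for the quiescent centre and stem cell niche (WOX5, PLT1, PLT2, SHR and SCR) summed to 101 and 104 CPM (G1), 144 and 179.6 CPM (S) and 186 and 178 CPM (G2M). WOX5 had 212 counts in total, against 23533 for PLT1 and 18905 for SHR. The 5 epidermis and root hair markers summed to 122 and 111 CPM (G1), 109 and 111 CPM (S) and 139 and 127 CPM (G2M). The 3 endodermis markers summed to 0.444 and 0.879 CPM (G1), 1.31 and 1.25 CPM (S) and 1.80 and 3.32 CPM (G2M). In G2M versus G1 3 niche, 2 xylem, 3 epidermis and 1 endodermis genes were called higher, and 4 phloem and 2 epidermis genes lower. Of all genes 23.2% were called higher and 17.1% lower. Mitochondrial genes took 8.23% and 6.53% of counts (G1), 3.67% and 3.10% (S) and 2.94% and 3.13% (G2M). The part of these differences in the members' values was not tested, and in bulk samples fewer cells of a type cannot be told apart from less RNA per cell.

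**Figure D5:**
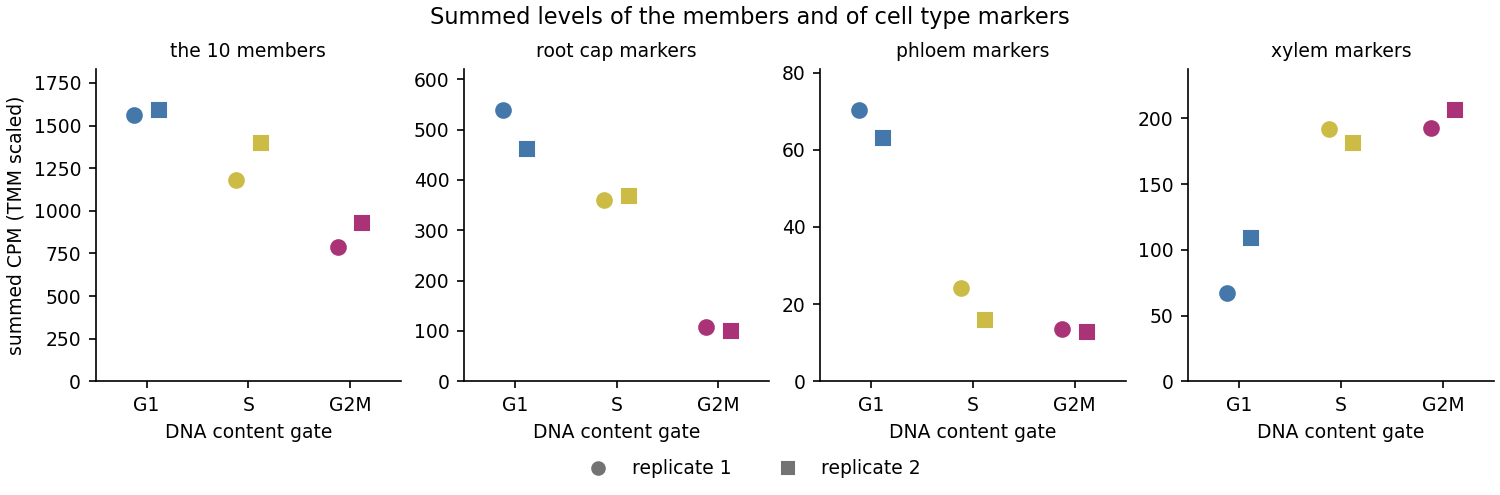
Summed CPM after TMM scaling (y axis, from 0, a separate scale for each panel) of the 10 members and of root cap, phloem and xylem markers in each library, by DNA content gate (x axis). Circles are replicate 1 and squares replicate 2. The members sum to 788 and 927 CPM and the root cap markers to 109 and 100.4 CPM in the G2M libraries, below all other libraries in both panels.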

How the data were processed

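The deposited count table holds raw read counts per gene for 6 libraries, made by the authors with Trimmomatic 0.39, HISAT2 2.2.1 and featureCounts on TAIR10, per the submitters' processing notes. The counting options and strandedness are not given in these sources. Libraries were made with SMART-Seq v4 and Ovation kits, per the labels' protocols. The authors' table named TPM was not used, because its columns sum to far less than TPM values do, and TPM was recomputed from counts and exon lengths of TAIR10.1.

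Tests used edgeR 4.0.16 under R 4.3.3 (TMM, default filterByExpr, 25364 genes, 1 quasi-likelihood fit of the 3 gates, Benjamini-Hochberg per comparison, threshold 0.05). The script was tested on simulated data. Total counts of 13114711 to 208406910 make a floor of 3 counts worth 0.0136 to 0.235 CPM. The members and lists were chosen with earlier results of these data known. All members are named, and of each list up to 2 genes per direction with the largest called change and no overlap, and others where 5 or fewer were called. Of 77 listed genes 71 were kept by identifier and symbol. The 16 alternatives were DESeq2 1.42.0, limma-voom (limma 3.58.1), other size factors, filters, blocks, offsets and gates, and leaving out each library. The promoter window of 1 member is not reported here.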

Additional observations from a re-analysis of the deposited data

How the results depend on the processing

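Of the 12 changes called among members, ZAT12 in G2M versus S and ZAT12, WRKY33 and JAZ1 in G2M versus G1 kept direction and call under all 16 settings, and no called member turned its direction. Without 1 library, members called lower numbered 1 to 6 in S versus G1 (3 with all), 1 to 4 in G2M versus S (3) and 3 to 7 in G2M versus G1 (6), and members called higher 0 to 2 in G2M versus S (0). In S versus G1 upper-quartile factors called 7 members lower, where 3026 of 25364 genes were called lower. A filter of 10 CPM in 2 libraries also called 7 lower, where 2841 of 12417 genes were, with ERF115 not tested. Limma-voom called 5 lower and 1 higher, where 4174 and 5605 of 25364 genes were. It called 1 member higher in G2M versus S, where 3994 of all genes were. Upper-quartile factors moved the median of all genes to −0.10 in S versus G1 and −0.36 in G2M versus G1, from 0.08 and −0.14, and the share of higher among called genes to 44.2% and 44.0%, from 65.6% and 57.5%.

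Listed genes called higher in S versus G1 (4) numbered 1 with upper-quartile factors, with only the 2 gates compared and with GC and length offsets, 2 with the 10 CPM filter, 10 with limma-voom and 1 to 7 without 1 library; those lower (8) numbered 14, 17 and 15 with upper-quartile factors, the 10 CPM filter and limma-voom, and 2 to 12 without 1 library. In G2M versus S those higher (5) numbered 3 with upper-quartile factors, the replicate block or offsets, 2 with the 10 CPM filter or only the 2 gates, 8 with DESeq2 or limma-voom and 0 to 8 without 1 library, and those lower (17) 7 to 17 without 1 library. In G2M versus G1 those higher (7) numbered 3 with upper-quartile factors, 2 with the 10 CPM filter, 12 with only the 2 gates and 2 to 13 without 1 library, and those lower (19) 29 with the 10 CPM filter and 11 to 24 without 1 library.

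Over all genes, S versus G1 called 3526 higher and 1847 lower, against 5605 and 4174 with limma-voom, 1999 higher with only the 2 gates, 3026 lower with upper-quartile factors, 2841 lower with the 10 CPM filter, and 1805 to 4205 higher and 816 to 2708 lower without 1 library. G2M versus S called 2399 higher and 2561 lower, against 3994 higher with limma-voom and 482 to 4924 higher and 990 to 4454 lower without 1 library. G2M versus G1 called 5882 higher and 4344 lower, against 3766 higher with the 10 CPM filter and 4151 to 6945 higher and 2528 to 5850 lower without 1 library.

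ERF115 could not be tested under the 10 CPM filter. That filter tested 12417 genes instead of 25364. Its counts above are out of fewer genes, so a smaller count is not a smaller share. Signs turned only for member changes that did not pass in the edgeR analysis reported, and no value with a turned sign passed. Of these changes, ERF115 in S versus G1 passed with limma-voom, and JAZ10 in G2M versus G1 passed with upper-quartile factors and the 10 CPM filter. In S versus G1 the log2 fold change turned for ERF115 (−1.09 to 3.29 over libraries left out) and ZAT10 (−0.41 to 0.0817), in both cases without S replicate 1, and for AOS with upper-quartile factors (−0.00436), offsets (−0.0370) and without S replicate 2 (−0.0188, up to 0.35 without others). In G2M versus S it turned for WRKY40 with upper-quartile factors (−0.0182), the 10 CPM filter (−0.12), only the 2 gates (−0.0165), offsets (−0.13), without S replicate 1 and without G2M replicate 2 (−0.0309 to 0.0978 over libraries left out), for ERF1A with limma-voom (0.00511), without S replicate 2 and without G2M replicate 1 (−0.21 to 0.11), for ERF115 without S replicate 1 (−1.54 to 1.31), and for AOS with limma-voom (0.00431), without S replicate 2 and without G2M replicate 1 (−0.23 to 0.16). In G2M versus G1 it turned for ERF115 with upper-quartile factors (−0.0377), without G1 replicate 1 and without G2M replicate 2 (−0.67 to 2.42), for AOS with upper-quartile factors (−0.10), the 10 CPM filter (−0.19) and offsets (−0.27), and for JAZ10 with offsets (0.37). With those offsets the listed genes ACX1 (−0.0317), TPL (−0.0624), BAP1 (0.13) and PEPR1 (−0.19) turned too, none of them then called. The causes were not tested.

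The difference between replicates 1 and 2 gave no sign that replicate numbers pair libraries between gates. Its correlation was −0.0462 between S and G1, −0.0649 between G2M and S and 0.0311 between G2M and G1. Such correlations cannot exclude a pairing, since noise between libraries of unequal depth could hide it. With the number as a replicate block 4 members were called lower in S versus G1, 4 in G2M versus S and 6 in G2M versus G1. ZAT12 was added in S versus G1 and ZAT10 in G2M versus S. Over all 25364 genes that block called 1680 lower in S versus G1 and 2135 in G2M versus S. In G2M versus G1, where 17.1% of all genes were called lower without the block, 59.1% of the genes called with it were higher. Where 1 library of a gate was left out, the lone library was assumed to vary like the other gates. Depth limits ERF115 most, at 3 counts in S replicate 2.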

Other observations

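Beside MYC2 and ERF105, at 0 counts in all libraries, ERF109 has 64.0% of its exon bases shared with another annotated gene and a total of 2182 counts over the 6 libraries, and it stood outside the lists because its symbol was not matched in the annotation. TCH2 has 20.9% and TCH3 20.2% of their exon bases shared, with totals of 111761 and 25734 counts. The 539 protein-coding nuclear genes with at least 90% of exon bases shared had a median total of 0 counts, against 2304 for the 19961 genes with none shared.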
